A study of Homo sapiens with 3 samples.

Results

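Genes of the ATP-binding cassette (ABC) superfamily that are known for carrying drugs out of cells were followed across 3 lines of oral squamous carcinoma cells. They were taken by name as ABCB1, ABCB4, ABCC1, ABCC2, ABCC3, ABCC4, ABCC5, ABCC6, ABCC10 and ABCG2, and make up 10 of the 19220 genes in the count table. The list is by name, drawn up with earlier results of these data known. CAL27 is a human line from an oral squamous cell carcinoma, and the library labelled CAL27 came from cells kept without drug (wild type in the labels). CAL27/5FU cells are the 5-fluorouracil (5FU) resistant derivative, obtained by stepwise increases of the drug and kept in 10 μM 5FU. CAL27/OXA cells are labelled as oxaliplatin (OXA) resistant and were kept in 10 μM OXA, and how they were derived is not given in the sources used here. All 3 lines grew in the same high-glucose medium with serum, each derivative is a single line, and the drug and the selected state cannot be told apart. RNA was sequenced from 1 library per line in the columns used here, so no difference below has a replicate check, and every interval is an exact 95% Clopper-Pearson interval that covers counting error only.

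ABC transporters bind and hydrolyse ATP at a pair of nucleotide-binding domains and use that energy to move substrates across a membrane. P-glycoprotein, the product of ABCB1, and the breast cancer resistance protein, the product of ABCG2, export many unconjugated drugs, whereas most of the ABCC proteins (the multidrug resistance proteins) export organic anions, often after glutathione, glucuronate or sulfate has been joined to them. In squamous epithelium and in the carcinomas that arise from it, these proteins are studied for lowering the amount of drug that a cell retains.

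The libraries held 37297713 to 43455488 counts assigned to genes and 15275 to 15407 genes with at least 1 count. A mean of 10 counts or more over the libraries was reached by 13676 genes, and 9 of the 10 transporter genes passed this filter, ABCB4 being the exception with a mean of 9.33. Counts were scaled with TMM factors, and a gene was counted as higher or lower when its log2 ratio, taken with a prior count of 2, passed 2-fold. Intervals and folds are those of the unsmoothed scaled counts, so at low counts a fold differs a little from its log2 ratio. The cells carried the markers of their labelled type, with counts for 11 of 11 squamous epithelial genes in all 3 libraries. The summed level of these markers was 15770 CPM (counts scaled to library size) in CAL27, 3864 CPM in CAL27/5FU and 5283 CPM in the CAL27/OXA library, and 9 and 7 of the 11 were past 2-fold lower in the respective derivatives. Among all tested genes, 6.72% and 9.28% were past 2-fold lower against CAL27, and 8.46% and 6.54% higher. Of 7 fibroblast markers, COL3A1 and THY1 were at 0 in every library, and the list summed to 1634, 1843 and 2223 counts. LUM (120, 414 and 877 counts) and COL1A2 (90, 300 and 212 counts) were past 2-fold higher in both derivatives, 2 of the 4 tested genes of that list, while COL1A1 had 1387, 1068 and 1050 counts. Of 6 leukocyte markers, PTPRC had 2, 0 and 0 counts, and the list summed to 80.6 to 122 CPM, mostly from CD68. CD14 (637, 1290 and 341 counts) was past 2-fold higher in CAL27/5FU and lower in CAL27/OXA, and ITGAM (176, 27 and 38 counts) was past 2-fold lower in both. The 5 endothelial markers summed to 2.59, 9.38 and 4.70 CPM, mostly from CDH5 in the derivatives (338 and 163 counts, against 43 in CAL27), with KDR at 0, 3 and 6 counts. VWF (44, 19 and 29 counts) was past 2-fold lower in CAL27/5FU, and PECAM1 had 13, 6 and 11 counts. The part of these shifts in the transporter levels was not tested. In bulk RNA, fewer cells that express a gene and less RNA per cell cannot be told apart.

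Positions are from GENCODE 29 (GRCh38). ABCB1 (chr7:87503633-87713323, minus strand, 28 exons) and ABCB4 (chr7:87401697-87480435, minus strand) are adjacent, as are ABCC1 (chr16:15949577-16143074, plus strand) and ABCC6 (chr16:16148928-16223522, minus strand). The others are ABCC2 (chr10:99782640-99852594), ABCC3 (chr17:50634777-50692252) and ABCC10 (chr6:43427366-43450430) on the plus strand, and ABCC4 (chr13:95019829-95301475), ABCC5 (chr3:183919934-184018015) and ABCG2 (chr4:88090264-88231322) on the minus strand.

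The start regions of ABCB1, ABCC5 and ABCG2 are shown because these genes passed 2-fold with a mean above 100 counts, had a RefSeq window, and each had a different pattern over the lines. Windows before a RefSeq start (GRCh38.p14) were held for 7 of the 10 genes, and not for ABCB4, ABCC1 and ABCC3. Each run is 5′ to 3′ on the minus strand, stops before the first annotated exon base that follows it, and has matches to CCAAT or to GGGCGG (the GC box) on either strand in capitals. ABCB1 has RefSeq starts at 2 places, and the inverted CCAAT near the internal start lies in annotated exon sequence, so it is shown in a 30-base run.
ABCB1, internal start, chr7:87601079-87601134: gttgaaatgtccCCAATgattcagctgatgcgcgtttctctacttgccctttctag
ABCB1, internal start, inverted CCAAT, chr7:87600946-87600975: gtggtgaggctgATTGGctgggcaggaaca
ABCB1, upstream start, chr7:87713324-87713545: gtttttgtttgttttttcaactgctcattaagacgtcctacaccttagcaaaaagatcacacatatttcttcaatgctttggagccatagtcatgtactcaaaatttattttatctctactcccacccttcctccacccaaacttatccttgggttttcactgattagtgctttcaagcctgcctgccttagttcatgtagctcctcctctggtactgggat
ABCC5, chr3:184018016-184018134: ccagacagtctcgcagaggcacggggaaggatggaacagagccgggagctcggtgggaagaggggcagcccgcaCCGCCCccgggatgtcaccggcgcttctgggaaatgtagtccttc
ABCG2, most upstream start, chr4:88231627-88231876: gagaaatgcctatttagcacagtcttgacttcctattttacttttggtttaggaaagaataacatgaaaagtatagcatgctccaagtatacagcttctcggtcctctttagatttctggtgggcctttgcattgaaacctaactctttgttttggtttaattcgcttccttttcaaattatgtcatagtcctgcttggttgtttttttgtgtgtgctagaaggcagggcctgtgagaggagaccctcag

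Over the 250 bases before each start, the internal ABCB1 window had 2 CCAAT matches, no GC box and a GC content of 55.6%, whereas the upstream ABCB1 window had no match to these or to the TATA box TATAAA and a GC content of 39.2%. The ABCC5 window had 1 GC box, 1 TATAAA and a GC content of 64.8%. The ABCG2 window shown had none of the 3 motifs and a GC content of 40%. Windows of other ABCG2 starts held up to 2 GC boxes and had GC contents from 43.6% to 73.6%. They overlap annotated exons and are not shown, so the printed window does not stand for all ABCG2 starts. Of 35116 RefSeq windows of the same length, 32.0% held CCAAT, 42.6% held GGGCGG and 10.7% held TATAAA on either strand, and the median GC content was 58%. The matches are letters in a window and not measured sites, and the count table does not say which start was used.

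ABCB1, which encodes P-glycoprotein, was detected in the CAL27/5FU library alone beyond the floor of 3 counts. It had 0 counts in CAL27, 368 counts in CAL27/5FU and 1 count in CAL27/OXA. These correspond to 0, 9.40 and 0.0225 CPM, where 1 count is worth 0.0257, 0.0255 and 0.0225 CPM. Against the floor of 3 counts in the CAL27 library, ABCB1 was 122-fold higher in CAL27/5FU. This lower bound (log2 ratio 6.93) is set by the floor and leaves out counting error. The lower limit of the counting interval was a log2 ratio of 6.63. Between the derivatives the ratio of the unsmoothed counts was 418-fold lower in CAL27/OXA, a log2 ratio of -8.71 that rests on 1 count and has an interval from -14.0 to -6.22. With the prior count of 2 the log2 ratio was -7.05. No ratio is given for CAL27/OXA against CAL27, since both libraries were at or under the floor. In the order of all tested genes by fitted log2 ratio in CAL27/5FU against CAL27, ABCB1 was at place 3 of 13676, and in CAL27/OXA against CAL27/5FU it was at place 13674. ABCB1 reached the filter only through its counts in CAL27/5FU. An extreme place was therefore fixed in advance, and nothing is read from it.

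ABCB4, the neighbour of ABCB1 and the exporter of phosphatidylcholine into bile, had 4, 18 and 6 counts in CAL27, CAL27/5FU and CAL27/OXA. Its highest count was in the same library as that of ABCB1, but at 0.460 CPM. The log2 ratio of its counts was 2.16 in CAL27/5FU against CAL27 (interval 0.56 to 4.19), 0.40 in CAL27/OXA against CAL27 (interval -1.68 to 2.66) and -1.77 in CAL27/OXA against CAL27/5FU (interval -3.39 to -0.37). Windows of 50 bases shared with the other gene made up 2.52% of the ABCB1 transcript and 2.82% of the ABCB4 transcript, so a small part of the reads could be placed on either gene, and the ABCB4 counts are uncertain for that reason too.

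**Figure D1:**
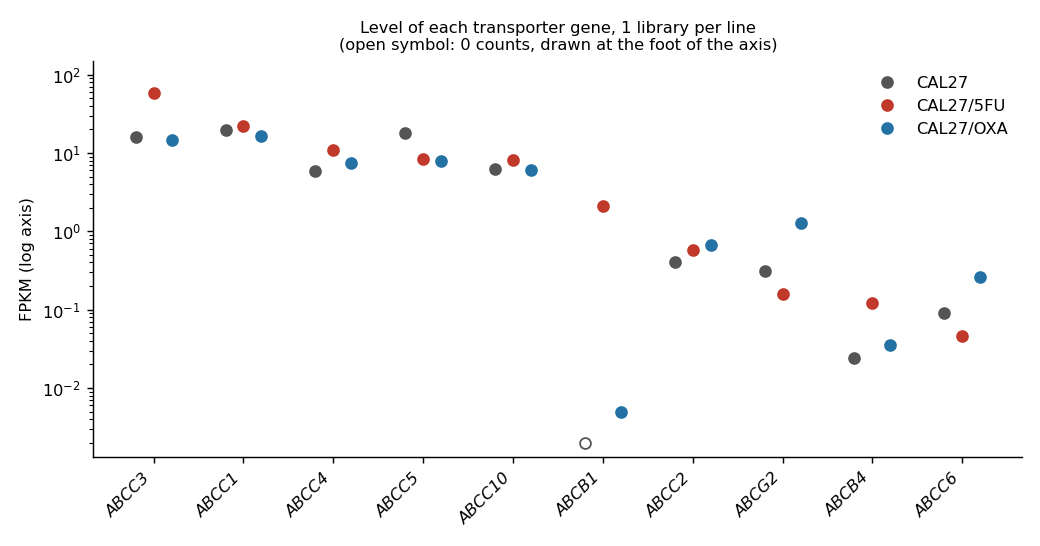
Deposited FPKM of each transporter gene on a log axis, with 1 point for each line and the genes in order of their value in CAL27/5FU. ABCB1 is at 2.09 FPKM in CAL27/5FU and at or near 0 in the other lines, whereas ABCG2 and ABCC6 are highest in CAL27/OXA.

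ABCG2, the exporter that works as a dimer and carries many anticancer drugs and urate, differed from CAL27 in opposite directions in the derivatives. It had 57 counts in CAL27, 26 in CAL27/5FU and, for CAL27/OXA, 244, so CAL27/OXA was the high library and CAL27/5FU the low one. The log2 ratio was -1.08 in CAL27/5FU (interval -1.87 to -0.45) and 1.87 in CAL27/OXA (interval 1.49 to 2.35) against CAL27, and the unsmoothed counts in CAL27/OXA were 3.75-fold higher. Directly between the derivatives, the log2 ratio of ABCG2 was 2.96 in CAL27/OXA against CAL27/5FU (interval 2.46 to 3.69), and its unsmoothed counts were 8.27-fold higher. The lower level in CAL27/5FU did not stay past 2-fold when counts were scaled by their totals, with a log2 ratio of -0.92, and its interval reaches inside 2-fold. ABCB1 and ABCG2 thus had their highest counts in different derivatives.

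ABCC3, which encodes MRP3, an exporter of glucuronide conjugates and bile salts on the basolateral side of epithelia, had the largest count of the group in CAL27/5FU. Its counts were 2344 in CAL27, 7569 in CAL27/5FU and, for CAL27/OXA, 2276. The level in CAL27/5FU was 3.21-fold that in CAL27 (log2 ratio 1.68, interval 1.62 to 1.75). CAL27/OXA was close to CAL27, with a log2 ratio of -0.23 (interval -0.32 to -0.15), and 3.77-fold lower than CAL27/5FU (log2 ratio -1.92, interval -1.98 to -1.85). ABCC3 therefore stood high in CAL27/5FU only, as ABCB1 did, but from a parental level that was already substantial.

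ABCC5, which encodes MRP5, an exporter of cyclic nucleotides and nucleotide analogues, was lower in both derivatives. It had 3486 counts in CAL27, 1428 in CAL27/5FU and, for CAL27/OXA, 1569. The level was 2.45-fold lower in CAL27/5FU (log2 ratio -1.29, interval -1.38 to -1.21) and 2.53-fold lower in CAL27/OXA (log2 ratio -1.34, interval -1.43 to -1.25). Both comparisons use the same CAL27 library, so its own deviation enters both ratios. The derivatives differed by a log2 ratio of -0.05 with an interval from -0.15 to 0.06, which includes 0.

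ABCC4, which encodes MRP4, the other exporter of cyclic nucleotides and nucleotide analogues in the group, did not share this pattern. It had 1062, 1787 and 1418 counts in CAL27, CAL27/5FU and CAL27/OXA. CAL27/5FU was higher by a log2 ratio of 0.74 (interval 0.63 to 0.85) and CAL27/OXA by 0.23 (interval 0.11 to 0.34). Neither ratio passed 2-fold, and the difference between the derivatives was -0.52 (interval -0.62 to -0.41) in CAL27/OXA against CAL27/5FU.

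ABCC1, which encodes MRP1, the exporter of glutathione conjugates and leukotriene C4, was among the most abundant genes of the group in every line. Its counts were 5468 in CAL27, 5470 in CAL27/5FU and, for CAL27/OXA, 4708. The log2 ratio was -0.01 in CAL27/5FU (interval -0.06 to 0.05) and -0.41 in CAL27/OXA (interval -0.46 to -0.35), and between the derivatives it was -0.40 (interval -0.46 to -0.34), all within 2-fold. The sign of the first ratio depends on the scaling, since total counts gave 0.16. Total counts also moved the median of all tested genes in that comparison to 0.17, and ABCC1 stayed close to that median.

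ABCC10, which encodes MRP7 and carries taxanes among other drugs, had 1310, 1557 and 1321 counts. Its log2 ratio was 0.24 in CAL27/5FU (interval 0.14 to 0.35) and -0.18 in CAL27/OXA (interval -0.29 to -0.07) against CAL27. Between the derivatives it was -0.42 (interval -0.53 to -0.31), and all 3 ratios were within 2-fold. The median absolute log2 ratio of all tested genes in these comparisons was 0.33, 0.34 and 0.29, so ABCC10 was under it against CAL27 and above it between the derivatives.

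ABCC2 and ABCC6 were expressed at low levels. ABCC2, which encodes MRP2, the apical exporter of conjugates into bile and urine, had 91, 117 and 157 counts. Its log2 ratio was 0.35 in CAL27/5FU (interval -0.05 to 0.77) and 0.59 in CAL27/OXA (interval 0.22 to 0.99), so the first difference was not detectable at this depth. ABCC6, which encodes MRP6 and is known for the release of ATP from liver cells and for its loss in pseudoxanthoma elasticum, had 11, 5 and 33 counts. Its log2 ratio was -0.91 in CAL27/5FU (interval -3.02 to 0.50) and 1.26 in CAL27/OXA (interval 0.38 to 2.53) against CAL27, and 2.16 between the derivatives (interval 1.17 to 4.25). Of the ABCC6 transcript, 15.1% of 50-base windows also occur elsewhere, mainly in the copies ABCC6P1 (14.1%) and ABCC6P2 (5.48%), which have no row of their own in the count table, so its counts are uncertain.

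**Figure D2:**
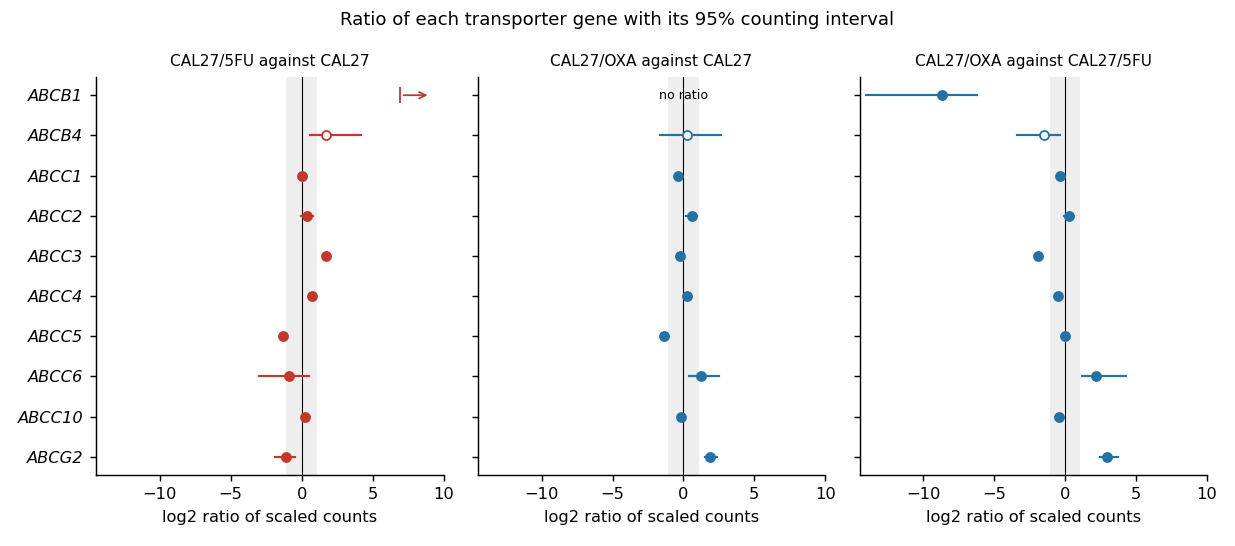
Log2 ratio of scaled counts for each transporter gene in the 3 comparisons, with bars for the 95% counting interval and grey shading for the range within 2-fold. The arrow marks the lower bound for ABCB1 (122-fold against the floor of 3 counts). Open symbols mark ABCB4, which did not pass the filter, and no ratio is drawn for ABCB1 in CAL27/OXA against CAL27. ABCC5 is to the left in both derivatives, and ABCG2 is on opposite sides.

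In CAL27/5FU against CAL27, 2 of the 9 tested genes were higher (ABCB1 and ABCC3) and 2 were lower (ABCC5 and ABCG2), beside 8.46% higher and 6.72% lower of all 13676 tested genes. In CAL27/OXA against CAL27, 2 were higher (ABCC6 and ABCG2) and 1 was lower (ABCC5), beside 6.54% higher and 9.28% lower. In CAL27/OXA against CAL27/5FU, 2 were higher (ABCC6 and ABCG2) and 2 were lower (ABCB1 and ABCC3), beside 4.18% higher and 8.38% lower. ABCB1 reached the filter only through its counts in CAL27/5FU and ABCC6 only through those in CAL27/OXA, so these genes had to differ and nothing is read from the size of the counts. Without ABCB1, the median log2 ratio of the other 8 tested genes was 0.12, 0.03 and -0.22 in these comparisons, with 4, 4 and 3 of the 8 above 0. Without ABCB1 and ABCC6, the median of the other 7 was 0.24, -0.18 and -0.40, with 4, 3 and 2 of the 7 above 0. The sign of the median in CAL27/OXA against CAL27 thus depends on ABCC6. The median of all tested genes was within 0.01 of 0 in each comparison.

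Levels can be set against each other between genes only per length, for which the deposited FPKM values were used. In CAL27, ABCC1 (19.9 FPKM), ABCC5 (18.1 FPKM) and ABCC3 (15.9 FPKM) led, followed by ABCC10 (6.20 FPKM) and ABCC4 (5.81 FPKM). At the lengths behind these FPKM values, ABCC10 and ABCC4 did not differ beyond counting error, with a ratio of 1.07 and an interval from 0.983 to 1.16. ABCC2 (0.400 FPKM) and ABCG2 (0.313 FPKM) did not differ either (ratio 1.28, interval 0.907 to 1.81), and ABCC6, ABCB4 and ABCB1 were all under 0.1 FPKM.

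In CAL27/5FU the order opened with ABCC3 (57.5 FPKM), ahead of ABCC1 (22.3 FPKM) and ABCC4 (10.9 FPKM). ABCC5 (8.30 FPKM) and ABCC10 (8.25 FPKM) followed and could not be separated (ratio 1.01, interval 0.935 to 1.08). ABCB1, at 2.09 FPKM, came next, 3.94-fold under ABCC10 and 3.63-fold over ABCC2 (0.576 FPKM). ABCG2 (0.160 FPKM), ABCB4 (0.123 FPKM) and ABCC6 (0.0459 FPKM) closed the order, and neighbours among these 3 did not differ beyond counting error. So in CAL27/5FU the level of ABCB1 stayed a small part of the summed level. Its ratio against CAL27 was the largest of the tested genes of the group, but it passed the filter only through CAL27/5FU.

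In CAL27/OXA the order was ABCC1 (16.5 FPKM), ABCC3 (14.9 FPKM), ABCC5 (7.82 FPKM), ABCC4 (7.46 FPKM) and ABCC10 (6.01 FPKM). ABCC5 and ABCC4 did not differ beyond counting error (ratio 1.05, interval 0.976 to 1.13). ABCG2 (1.29 FPKM) stood above ABCC2 (0.663 FPKM) here, by 1.94-fold with an interval from 1.58 to 2.39, and ABCC6 (0.260 FPKM), ABCB4 (0.0352 FPKM) and ABCB1 (0.00488 FPKM) came last.

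**Figure D3:**
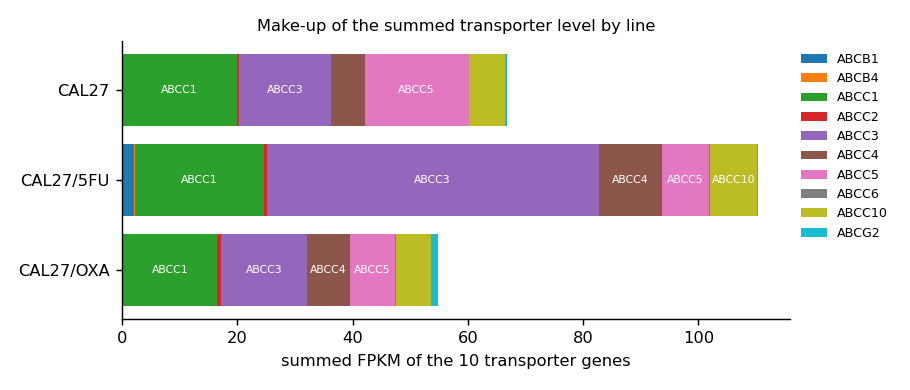
Summed FPKM of the 10 transporter genes in each line, split by gene. The bar of CAL27/5FU is the longest at 110 FPKM, and ABCC3 takes 52.1% of it. In CAL27/OXA, ABCC1 and ABCC3 take similar shares by the deposited FPKM, which depends on the length used for ABCC3.

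The summed level of the group was 66.7 FPKM in CAL27, 110 FPKM in CAL27/5FU and 54.9 FPKM in CAL27/OXA. ABCC3 made up 23.8%, 52.1% and 27.1% of these sums, and ABCC1 29.9%, 20.2% and 30.1%. The share of ABCC5 was 27.1% in CAL27, 7.52% in CAL27/5FU and, for CAL27/OXA, 14.3%. ABCB1 contributed 1.90% in CAL27/5FU, and ABCG2 contributed 2.35% in CAL27/OXA. FPKM values are scaled by total counts, which placed the median of all tested genes 0.16 (CAL27/5FU) and 0.13 (CAL27/OXA) above CAL27 on the log2 scale with a pseudocount of 0.1. The FPKM values imply a length of 3527 nt for ABCC3, whereas the main GENCODE transcript has 5716 nt. With GENCODE transcript lengths the ABCC3 share was 17.8%, 42.5% and 20.2%, ABCC3 was still first in CAL27/5FU, and in that line ABCC10 and ABCC4 came before ABCC5. The ABCC1 share in CAL27/OXA was then 36.3%, so ABCC1 and ABCC3 no longer had similar shares there.

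The wider ABC superfamily was read in the same libraries, with 38 other ABC genes of which 28 were tested. In CAL27/5FU against CAL27, 6 were higher and 1 was lower (median log2 ratio 0.08), beside 8.46% higher and 6.72% lower of all tested genes. In CAL27/OXA against CAL27, 3 were higher and 4 were lower (median -0.06), beside 6.54% and 9.28%. Between the derivatives 1 was higher and 6 were lower (median -0.16), beside 4.18% and 8.38%. Nothing is read from the size of these counts. ABCC9, which encodes the sulfonylurea receptor SUR2 of potassium channels and is no drug exporter, had 2, 217 and 679 counts, with log2 ratios of unsmoothed counts of 6.75 in CAL27/5FU (interval 4.88 to 9.81) and 8.22 in CAL27/OXA (interval 6.36 to 11.3) against the 2 counts in CAL27. With the prior count of 2 these were 5.80 and 7.26. ABCA12, the lipid transporter of keratinocytes, had 771, 203 and 182 counts and log2 ratios of -1.92 and -2.26. It was thus low in both derivatives, as were 9 and 7 of the squamous markers above. ABCB9, a lysosomal peptide transporter, had 960, 538 and 544 counts and log2 ratios of -0.84 and -1.01.

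Between the derivatives, the surfactant lipid transporter ABCA3 (105, 157 and 73 counts) was lower in CAL27/OXA than in CAL27/5FU, with a log2 ratio of -1.26. The genes that follow had a mean under 100 counts and are named after their values were seen. In CAL27/5FU those past 2-fold higher included the cholesterol exporters ABCA1 (29, 195 and 64 counts in CAL27, CAL27/5FU and CAL27/OXA) and ABCG1 (11, 41 and 5 counts), and ABCB5 (35, 164 and 99 counts), a relative of ABCB1. In CAL27/OXA, ABCB5 was also past 2-fold higher than in CAL27. ABCG1 was past 2-fold lower there by its log2 ratio of -1.04, but its counting interval from -3.20 to 0.32 includes 0. ABCA13 (24, 75 and 143 counts) was past 2-fold higher in both derivatives, ABCA4 (8, 23 and 5 counts) in CAL27/5FU, and ABCC11 (35, 19 and 8 counts) was past 2-fold lower in CAL27/OXA. ABCG1 and ABCA4 reached the filter only through their counts in CAL27/5FU, so they had to stand high there. Both are among the higher genes counted above, and nothing is read from their calls.

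**Figure D4:**
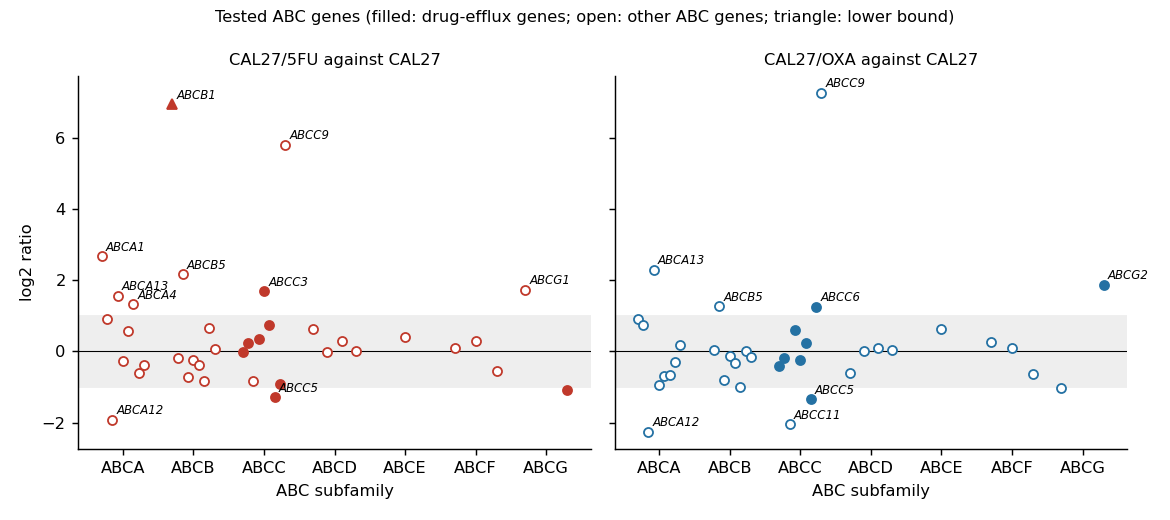
Log2 ratio (prior count 2) of each tested ABC gene by subfamily, with filled symbols for the drug-efflux genes and open symbols for the other ABC genes, and grey shading for the range within 2-fold. ABCB1 is drawn at its lower bound in CAL27/5FU and has no ratio in CAL27/OXA. ABCC9 and ABCA12 lie far above and far below in both derivatives.

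Among 22 regulators known for acting on the transcription of these transporters, 20 were tested. In CAL27/5FU, 3 were higher and 1 was lower than in CAL27 (median log2 ratio -0.12), in CAL27/OXA 1 was higher and 0 were lower (median -0.24), and between the derivatives 0 were higher and 2 were lower. The shares of all tested genes were 8.46%, 6.54% and 4.18% higher and 6.72%, 9.28% and 8.38% lower in these comparisons. ETS1, a transcription factor known to act on the ABCB1 promoter, had 563, 1259 and 1200 counts in CAL27, CAL27/5FU and CAL27/OXA, and a log2 ratio of 1.15 in CAL27/5FU. HIF1A, the oxygen-regulated factor, had 32898, 67262 and 37164 counts and a log2 ratio of 1.02 in CAL27/5FU. RXRA, the partner of many nuclear receptors, had 11089, 5383 and 6744 counts and a log2 ratio of -1.05 in CAL27/5FU. EGR1, an immediate early factor, had 1458, 2818 and 5268 counts and was past 2-fold higher in CAL27/OXA (log2 ratio 1.66). PPARG, the lipid-sensing nuclear receptor, had 45, 194 and 54 counts and is named after its values were seen. NR1I2, the pregnane X receptor that senses drugs in liver and gut, had 0, 1 and 3 counts, at or under the floor in every library.

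Of 11 tested genes for proteins that hold transporters at the membrane or were linked to drug resistance, SLC9A3R1 alone passed 2-fold against CAL27. Among all tested genes, 15.2% in CAL27/5FU and 15.8% in CAL27/OXA did so in either direction. SLC9A3R1 encodes a scaffold that binds the tail of ABCC2 and ABCC4 among other membrane proteins. It had 5288, 1941 and 2120 counts, with log2 ratios of -1.45 in CAL27/5FU and -1.51 in CAL27/OXA. MVP, the major vault protein, had 12359, 10068 and 11739 counts.

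The genes next to each transporter gene on its chromosome were compared, taking the 5 nearest tested genes on each side. Around ABCB1 the median log2 ratio was 0.11 in CAL27/5FU and 0.29 in CAL27/OXA, and RUNDC3B, the nearest on the side of higher coordinates, had 51, 29 and 72 counts. SEMA3D, 2517 kb away, was the single neighbour past 2-fold in CAL27/5FU (log2 ratio 2.38). Around ABCC3 the medians were -0.20 and 0.10, so the higher ABCC3 level in CAL27/5FU was not seen in the genes beside it. EPN3 in that region was lower in both derivatives (log2 ratios -2.51 and -2.94).

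Around ABCC5 the neighbours were shifted the same way as the gene. Their median was -0.62 in CAL27/5FU and -0.60 in CAL27/OXA, within 666 kb, and all 10 were below 0 in CAL27/OXA, from -1.85 to -0.35. In CAL27/5FU they ran from -1.28 to 0.15. YEATS2 and KLHL24 were past 2-fold lower in both derivatives, with log2 ratios of -1.21 and -1.28 in CAL27/5FU and -1.36 and -1.85 in CAL27/OXA. ABCC5 itself was below the median of its neighbours in both. A shift in the direction of the gene was not particular to ABCC5. Around ABCC4 (log2 ratios 0.74 and 0.23) the medians were 0.65 and 0.77, with neighbours up to 15642 kb away. Of these, 4 and 5 were past 2-fold higher and 1 was lower in each comparison. Around ABCB4, ABCC1, ABCC2, ABCC6 and ABCC10 the medians lay between -0.23 and 0.29. Around ABCG2 the medians were 0.72 and 0.59, and its neighbours were above 0 in the median in CAL27/5FU, where ABCG2 was low. SPP1, the gene for osteopontin, was past 2-fold higher in both derivatives (log2 ratios 2.42 and 3.89). DNA copy number was not measured, so its part in these regional shifts was not tested.

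**Figure D5:**
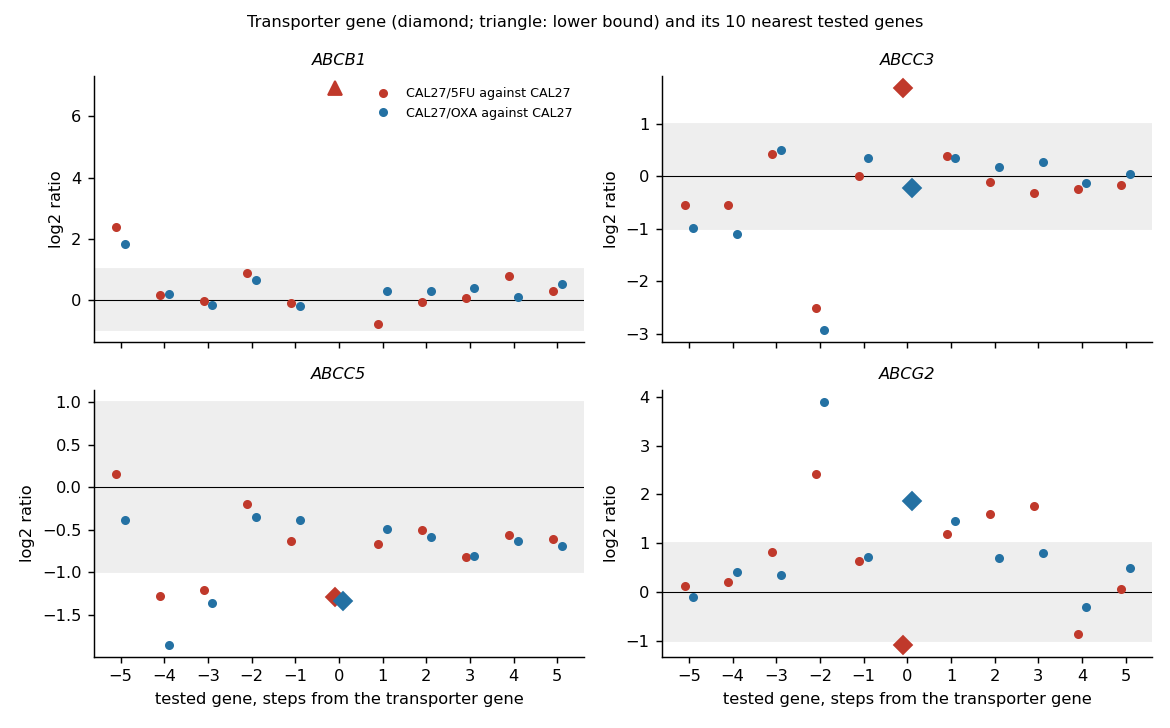
Log2 ratio of ABCB1, ABCC3, ABCC5 and ABCG2 (diamonds, or a triangle at the lower bound) and of the 5 nearest tested genes on each side (circles), by step along the chromosome. The circles around ABCC5 lie mostly below 0, with medians of -0.62 and -0.60, whereas those around ABCB1 have medians of 0.11 and 0.29.

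The genes whose levels were most like ABCB1 across the 3 libraries were sought among 11540 genes whose mean reached 100 counts, by the Euclidean distance of log2 CPM after centring each gene. The nearest was TFPI, an inhibitor of the tissue factor pathway of coagulation, with 11, 1332 and 49 counts in CAL27, CAL27/5FU and CAL27/OXA (distance 1.53). ACTL8 had 4, 918 and 0 counts (distance 1.66), and DOCK10, a guanine nucleotide exchange factor, had 8, 351 and 10 counts (distance 1.84). TGFB2, a ligand of the TGF-beta family, had 26, 988 and 66 counts (distance 2.26), and GDA, guanine deaminase, had 348, 3816 and 252 counts (distance 3.02). These genes were picked for their likeness to ABCB1, so a high level in CAL27/5FU was fixed by the choice. TFPI, ACTL8, DOCK10 and TGFB2 also reached the mean of 100 counts only through CAL27/5FU. The likeness is a description over 3 libraries of 1 sample each, and nothing is read from it.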

How the data were processed

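RNA was sequenced from 1 library each of CAL27, CAL27/5FU and CAL27/OXA cells on an Illumina platform. The submitters' processing notes name CASAVA 1.8, HISAT2 2.0.5 and the build GRCh38/hg38. The counting tool, the annotation and the strandedness are not given in the sources used here, so overlapping genes on opposite strands may share reads. The authors deposited read counts per gene symbol, without normalization, and FPKM values, which for 100% of 14367 genes with counts in all 3 libraries were the counts divided by length and total (tolerance 0.1%). Another 3 columns of per-sample values in each table are named as further samples of these lines but matched no labelled sample, so they were left out, and the limit to 1 library per line applies to the columns used. Totals were 41786182, 37297713 and 43455488 counts.

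Counts were scaled with TMM factors (edgeR 4.0.16 in R 4.3.3), and log2 ratios were taken with a prior count of 2. Intervals come from the unsmoothed pair of counts (SciPy 1.17.1). Genes whose mean reached 10 counts were tested. With 1 library per line no p-value was computed. The ratio script was tested on simulated data. DESeq2 1.42.0 size factors, other scalings, filters, prior counts, thresholds and the FPKM values were tried as alternatives. Symbols matched GENCODE 29 for 18769 of 19220 genes.

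The transporter genes and the lists were chosen with earlier results of these data known. Named are all 10 transporter genes, in each comparison up to 10 other ABC genes and up to 5 genes of each other list past 2-fold whose mean reached 100 counts, the 5 genes most like ABCB1, neighbours where they are described, and cell type markers. The values of 1 other ABC gene that this rule names are not reported here.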

Additional observations from a re-analysis of the deposited data

Results flagged for a closer look

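ABCG2 was past 2-fold lower in CAL27/5FU than in CAL27 (log2 ratio -1.08, 26 against 57 counts) and past 2-fold higher in CAL27/OXA than in CAL27 (log2 ratio 1.87, 244 against 57 counts). It was picked out because the derivatives differed in opposite directions from the same CAL27 library. The difference between these effects was not tested, as there is 1 library per line.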

How the results depend on the processing

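No paired analysis was possible because each line has 1 library in the columns used, and for the same reason no library could be left out. For the transporter genes, 178 values were recomputed for 26 log2 ratios under 7 other scalings, prior counts and pseudocounts, of which 174 kept their sign and 169 kept their side of 2-fold. The filters on low counts cannot move a gene's own ratio and are not counted. The 4 changes of sign all belonged to ABCC1 in CAL27/5FU against CAL27. At 4-fold, 1 gene passed in CAL27/5FU against CAL27 (ABCB1), and 0 passed in CAL27/OXA against CAL27. With FPKM and a pseudocount of 1, 1 gene passed in CAL27/OXA against CAL27 (ABCC5) and 2 passed in CAL27/OXA against CAL27/5FU (ABCB1 and ABCC3). The FPKM pseudocount draws genes under 1 FPKM towards no change, by its construction. ABCG2 in CAL27/5FU was -0.92 with total counts, and -0.18 and -0.67 with FPKM pseudocounts of 1 and 0.1. With the whole interval past 2-fold, 3, 2 and 4 genes passed in the order of the comparisons above. The share of all tested genes was not taken under these other rules. ABCB1 and ABCC6, where they are among the genes passed, reached the filter only through the library where they were high. Nothing is read from the size of these counts. The use of GENCODE transcript lengths was chosen after seeing the data. Depth limits ABCB4, ABCC6, ABCC2 and ABCG2, whose intervals are wide.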

Other observations

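Enzymes that join glutathione, glucuronate or sulfate to drugs, and so make substrates for several ABCC exporters, were read beside them. Of 24 such genes in the table, 15 were tested. None was past 2-fold higher against CAL27 in either derivative, while 1 was lower in CAL27/5FU and 4 were lower in CAL27/OXA (median log2 ratios -0.16 and -0.21). Beside this, 8.46% and 6.54% of all tested genes were higher and 6.72% and 9.28% lower. Nothing is read from the size of these counts. GSTP1, the most abundant of the glutathione transferases on the list, had 58548, 31942 and 48387 counts in CAL27, CAL27/5FU and CAL27/OXA, and its log2 ratio of -0.88 in CAL27/5FU was within 2-fold. GSTZ1, which acts in tyrosine breakdown, had 848, 575 and 448 counts (log2 ratio -1.11 in CAL27/OXA), and SULT1A1, a phenol sulfotransferase, had 554, 650 and 301 counts (log2 ratio -1.06 in CAL27/OXA). SULT2B1 (31, 12 and 6 counts) and GSTM2 (40, 34 and 16 counts) are named after their values were seen. Both were past 2-fold lower in CAL27/OXA, and SULT2B1 was the 1 gene lower in CAL27/5FU. SULT2B1 reached the filter only through its counts in CAL27, so nothing is read from its lower calls. Counts of GSTM and UGT1A genes are uncertain, since these families hold near-identical copies or shared exons.

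The organic anion uptake carriers of the SLCO family bring many of the same drugs and conjugates into cells. Of 8 genes 5 were tested, and 2 were past 2-fold higher in CAL27/5FU and 1 in CAL27/OXA, all at low counts. The shares of all tested genes past 2-fold higher were 8.46% and 6.54%. SLCO1A2 had 0, 23 and 8 counts, and SLCO1B1 had 12, 54 and 25 counts. With a floor of 3 counts in CAL27, SLCO1A2 was 7.63-fold higher in CAL27/5FU and 2.34-fold higher in CAL27/OXA. The lower limits of its counting intervals were log2 ratios of 2.52 and 0.58, the second being inside 2-fold. SLCO1A2 and SLCO1B1 are named after their values were seen, and SLCO1A2 reached the filter only through the libraries where it was high. The abundant members SLCO4A1 (7327, 8215 and 10816 counts), SLCO1B3 (4764, 2957 and 5136 counts) and SLCO3A1 (2522, 1829 and 1510 counts) stayed within 2-fold of CAL27.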
